A study of Mus musculus with 12 samples.

Results

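The difference between Fzd5KO and Ctrl that was shared by both sampling days was examined in bulk RNA-seq of mouse jejunal intestinal epithelial cells. The 12 libraries formed 4 groups of 3, Fzd5KO day 3, Ctrl day 3, Fzd5KO day 1 and Ctrl day 1, where Fzd5KO is a genotype labelled as a knockout of Fzd5 and Ctrl its control. The labels give neither the alleles, the promoter of any recombinase, the strain nor the age. The part of any difference between the genotypes other than loss of Fzd5 was not tested. What day 1 and day 3 are counted from, and whether each library came from its own animal, is also not stated. P-values therefore cover the spread among the libraries, and this may be technical. All 12 libraries were used. A gene belonged to the shared effect when its Fzd5KO libraries lay all above or all below the Ctrl libraries of the same day, in the same direction on both days. Of 55421 listed genes, 14510 reached 1 TPM (an abundance scaled for transcript length and library total) in at least 3 libraries and were tested, and 3152 of these met the rule, 346 above and 2806 below control. The change was taken as the mean of Fzd5KO minus Ctrl over both days in log2(TPM + 1), a scale that understates the change of low genes.

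Frizzled 5 is a cell-surface receptor that binds Wnt ligands together with LRP co-receptors. Binding stabilises beta-catenin, which activates target genes with TCF and LEF factors at promoters and enhancers. In the small intestine this signal is strongest at the crypt base, where it maintains Lgr5-positive stem cells and Paneth cells, while differentiated cells move up the villus and are shed at its tip. In bulk samples, fewer cells of a type and less RNA per cell cannot be told apart.

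Fzd5 was read at 39.7, 37.8 and 38.3 TPM in Fzd5KO and 68.2, 65.9 and 60.5 TPM in Ctrl at day 3. At day 1 Fzd5 had 31.9, 33.1 and 33.1 TPM in Fzd5KO and 43.5, 49.4 and 46.8 TPM in Ctrl. Every Fzd5KO library lay below every Ctrl library of its day. The change on the mean of both days was −0.61. The libraries that show this are those the rule used, so no test is given for it. Which part of the gene was deleted is not stated, so the remaining level does not measure loss of the intact gene. The libraries detected 21506 to 24467 genes above 0, and the deposited TPM values carry no depth. Of the TPM, 7SL and 7SK RNA took 19.7 to 21.9% in Fzd5KO and 19.8 to 21.1% in Ctrl at day 3, and 26.2 to 27.2% in Fzd5KO and 22.9 to 25.7% in Ctrl at day 1. The rescaled table described next leaves these RNAs out; their part in the results was not tested further.

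The shared effect held 345 genes called higher, 2.38% of those tested, and 2801 called lower, 19.3%, where called means an adjusted p under 0.05 by limma for the mean of both days. The rule and the test used the same libraries, so nothing is read from these shares, and no p of that contrast is given for a single member. Where the text below says that a called gene's genotypes did not overlap, the rule required it, and it is not a result. The split between higher and lower depended on how the libraries were scaled to each other. The median change of all tested genes was −0.135, so a typical gene lay slightly below control in the deposited values. Quantile normalization moved that median by 0.122 and median-of-ratios scaling by 0.14, which brought it close to 0. Of the calls 89.0% were lower in the deposited TPM, 71.0% after rescaling without the most abundant, mitochondrial, predicted and small RNA genes, 54.0% after quantile normalization and 43.4% after median-of-ratios scaling. Under all 4 scalings the same call was made for 294 higher genes, 2.03% of those tested, and 813 lower genes, 5.6%, and these are called scale-stable here. No called gene changed direction between scalings, and 12170 genes were tested in the rescaled table, so the genes it leaves out could not qualify.

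**Figure D1:**
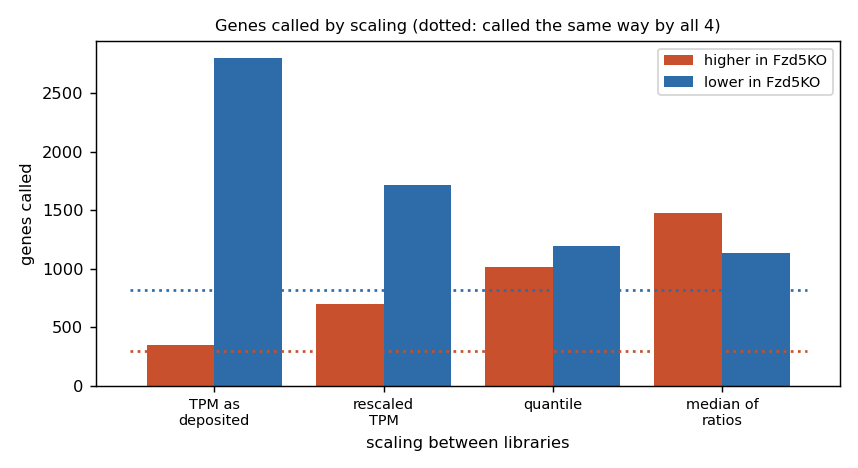
Number of genes called higher (orange) and lower (blue) in Fzd5KO on the mean of both days, by scaling between libraries, with the vertical axis in genes and dotted lines at the 294 higher and 813 lower genes called the same way under all 4 scalings. The deposited TPM gave 345 higher and 2801 lower genes, and median-of-ratios scaling gave 1479 higher and 1132 lower genes.

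Among the scale-stable genes, the rises were drawn from more abundant transcripts than the falls. The median level over all groups was 34.6 TPM for the 294 higher genes and 11.5 TPM for the 813 lower genes, beside 10.8 TPM over all tested genes. Protein-coding genes made up 96.6% of the higher and 95.4% of the lower genes, against 80.8% of all tested genes, which include predicted genes that the rescaled table leaves out. The filter at 1 TPM was passed only through the higher genotype by 13 of the higher and 64 of the lower genes, so these had to differ to be tested. The called members of the gene lists below that passed in this way were Lgr5, Tnfrsf19, Slc14a1 and Gkn3 (stem cell), Nkd1 and Fzd1 (Wnt), Isl1 and Scg5 (enteroendocrine) and Pou2f3 (tuft cell) among the falls and Il1rn among the rises, and the counts of their lists include them. Large shared changes were few: 7 called genes rose and 30 fell by at least 1 on the log2 scale on both days.

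The sizes of the shared changes differed between the days for many genes. The difference between the day 3 and the day 1 change, a contrast the rule did not use, was called by limma for 6434 of all tested genes, 44.3%. It was called for 220 of the scale-stable higher genes, 74.8%, with the larger change at day 3 in 214 and at day 1 in 6. Among the scale-stable lower genes it was called for 413, 50.8%, with the larger change at day 3 in 400 and at day 1 in 13. Over all tested genes limma called 9113 for the day 3 change and 3622 for the day 1 change, so a lean to day 3 was not particular to the shared genes. Outside the shared effect, 869 genes were called on each day in opposite directions, against 1915 called on each day in the same direction.

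**Figure D2:**
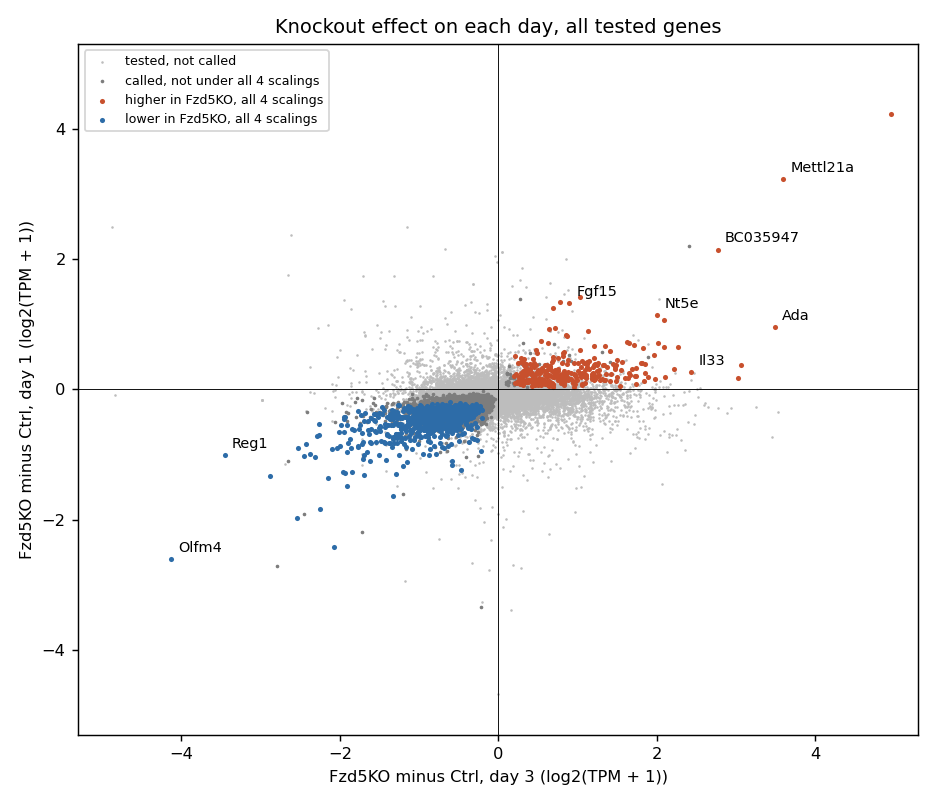
Change in Fzd5KO minus Ctrl at day 3 (horizontal) and day 1 (vertical) for each tested gene, both in log2(TPM + 1), with scale-stable higher genes in orange, scale-stable lower genes in blue, other called genes in dark grey and the rest in light grey; 4 genes beyond the axes are not drawn. Most coloured points lie farther from 0 along the day 3 axis, and Olfm4 lies at −4.13 and −2.61.

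Crypt-base stem cell markers fell together on both days. Of 24 listed markers 23 were tested, and 21 were called lower, 18 of them under all 4 scalings, while the other 2 did not pass. Their median change was −1.09, beside −0.135 and 19.3% called lower over all tested genes. Among the 21, 4 passed the filter only through Ctrl. Olfm4, which encodes olfactomedin 4, a secreted product of the stem cells (chromosome 14, 79984081 to 80023139, plus strand, mm10), had the largest fall of the named genes. It had 25.7, 23.1 and 24.8 TPM in Fzd5KO and 457, 447 and 433 TPM in Ctrl at day 3. At day 1 Olfm4 had 45.5, 45.8 and 46 TPM in Fzd5KO and 288, 289 and 276 TPM in Ctrl. The Fzd5KO libraries lay far below the Ctrl libraries on both days, with a change of −4.13 ± 0.041 at day 3 and −2.61 ± 0.041 at day 1.

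Lgr5, the R-spondin receptor that defines these stem cells, had 0.63, 1.06 and 0.59 TPM in Fzd5KO and 5.65, 5.75 and 5.27 TPM in Ctrl at day 3. At day 1 Lgr5 had 1.12, 0.75 and 0.82 TPM in Fzd5KO and 4.61, 4.57 and 3.74 TPM in Ctrl. It reached 1 TPM in 2 Fzd5KO libraries and so passed the filter only through Ctrl. Its change was −1.91 ± 0.12 at day 3 and −1.49 ± 0.12 at day 1. Ascl2, the transcription factor that maintains stem cell identity, had 0.24, 0.55 and 0.48 TPM in Fzd5KO and 5.94, 6.27 and 5.99 TPM in Ctrl at day 3. At day 1 Ascl2 had 1.48, 1.6 and 1.06 TPM in Fzd5KO and 3.68, 4.23 and 3.66 TPM in Ctrl. Smoc2, a matricellular protein, had 9.15, 11.9 and 10.8 TPM in Fzd5KO and 47.5, 44.5 and 43.6 TPM in Ctrl at day 3. At day 1 Smoc2 had 17.7, 18.8 and 16.9 TPM in Fzd5KO and 32.5, 35.2 and 32.4 TPM in Ctrl. In both, the Fzd5KO day 3 libraries were the lowest and the Ctrl day 3 libraries the highest of the 4 groups. Changes were −2.32 ± 0.12 at day 3 and −1.03 ± 0.12 at day 1 for Ascl2 and −2.0 ± 0.081 at day 3 and −0.87 ± 0.081 at day 1 for Smoc2. Igfbp4, an insulin-like growth factor binding protein, changed by −1.96 ± 0.16 at day 3 and −1.27 ± 0.16 at day 1, and the sodium-potassium-chloride cotransporter gene Slc12a2 by −2.04 ± 0.047 at day 3 and −0.9 ± 0.047 at day 1. The markers not called were Prom1, with a change of −1.1 at day 3 and −0.16 at day 1, and Clca4b, with 1.3 at day 3 and −0.23 at day 1.

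Outside the marker list, 2 more named falls belong to genes known from the crypt. Msi1, which encodes the RNA-binding protein Musashi 1 of intestinal progenitors, had 1.73, 1.84 and 1.52 TPM in Fzd5KO and 8.84, 10.6 and 8.64 TPM in Ctrl at day 3. At day 1 Msi1 had 2.38, 2.39 and 2.39 TPM in Fzd5KO and 6.88, 7.97 and 6.92 TPM in Ctrl. Clca3b, a member of the calcium-activated chloride channel regulator family, had 62.8, 70.2 and 67.2 TPM in Fzd5KO and 215, 210 and 197 TPM in Ctrl at day 3. At day 1 Clca3b had 84.5, 78.2 and 81.7 TPM in Fzd5KO and 176, 182 and 169 TPM in Ctrl. Genotypes did not overlap for either gene, and the changes were −1.94 ± 0.092 at day 3 and −1.28 ± 0.092 at day 1 for Msi1 and −1.62 ± 0.05 at day 3 and −1.1 ± 0.05 at day 1 for Clca3b.

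Wnt receptors and co-receptors other than Fzd5 were lower as a list. Of 21 listed, 15 were tested, with 11 called lower, 8 of them under all 4 scalings, 4 not called and a median change of −0.43. Over all tested genes 19.3% were called lower, 5.6% under all 4 scalings, with a median of −0.135. Scale-stable falls covered Fzd1, Lrp6, Lgr4, Lgr5, Ror2, Ptk7, Znrf3 and Rnf43. Ror2, a co-receptor for non-canonical Wnt ligands, had 0.89, 0.76 and 0.55 TPM in Fzd5KO and 3.23, 2.75 and 3.1 TPM in Ctrl at day 3. At day 1 Ror2 had 1.42, 1.5 and 1.6 TPM in Fzd5KO and 2.7, 2.49 and 2.75 TPM in Ctrl. Its Fzd5KO day 3 libraries were the lowest of the 12, and its change was −1.22 ± 0.10 at day 3 and −0.54 ± 0.10 at day 1. Rnf43, a ubiquitin ligase that removes Frizzled receptors from the cell surface, had 19.7, 19.2 and 19.2 TPM in Fzd5KO and 32.9, 29.2 and 31.5 TPM in Ctrl at day 3. At day 1 Rnf43 had 20.5, 21.1 and 20.2 TPM in Fzd5KO and 25.5, 29.8 and 29.9 TPM in Ctrl. The stem cell receptor Lgr4 changed by a similar size on each day, −0.41 ± 0.049 at day 3 and −0.44 ± 0.049 at day 1, and the difference between its days did not pass (adjusted p = 0.748). Fzd7, a Frizzled receptor of intestinal stem cells, was not called, with changes of −0.16 at day 3 and −0.52 at day 1.

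Of 25 Wnt target and feedback genes 18 were tested, with 2 called higher, both under all 4 scalings, and 13 lower, 9 under all 4 scalings. Their median change was −0.60, beside −0.135 with 2.38% higher and 19.3% lower over all tested genes. This list shares Lgr5, Ascl2, Axin2, Tnfrsf19, Cd44, Ephb2, Sox9, Znrf3 and Rnf43 with the stem cell list and so repeats part of it. Axin2, a direct target whose product promotes degradation of beta-catenin, had 15.7, 13.7 and 16.1 TPM in Fzd5KO and 49.7, 52.2 and 44 TPM in Ctrl at day 3. At day 1 Axin2 had 22.9, 19.4 and 19.4 TPM in Fzd5KO and 37.2, 36.2 and 36.1 TPM in Ctrl. Fzd5KO was below Ctrl in every library, with a change of −1.62 ± 0.082 at day 3 and −0.8 ± 0.082 at day 1. Tnfrsf19, a receptor of the TNF family and a Wnt target, had 0.13, 0.21 and 0.08 TPM in Fzd5KO and 2.41, 2.43 and 3.31 TPM in Ctrl at day 3. At day 1 Tnfrsf19 had 0.22, 0.11 and 0.23 TPM in Fzd5KO and 1.69, 1.83 and 2.36 TPM in Ctrl. It stood near 0 in all 6 Fzd5KO libraries and passed the filter only through Ctrl. The members that rose were the cyclin D genes Ccnd1, by 0.24 at day 3 and 0.41 at day 1, and Ccnd2, by 0.52 and 0.28. Both were named after their values were seen. Myc, another target, was not part of the shared effect: it had 9.3, 11.8 and 10 TPM in Fzd5KO and 19.3, 21.1 and 18.1 TPM in Ctrl at day 3. At day 1 Myc had 14.3, 15.8 and 14.5 TPM in Fzd5KO and 13.1, 15.2 and 14.9 TPM in Ctrl. Its day 1 libraries overlapped.

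**Figure D3:**
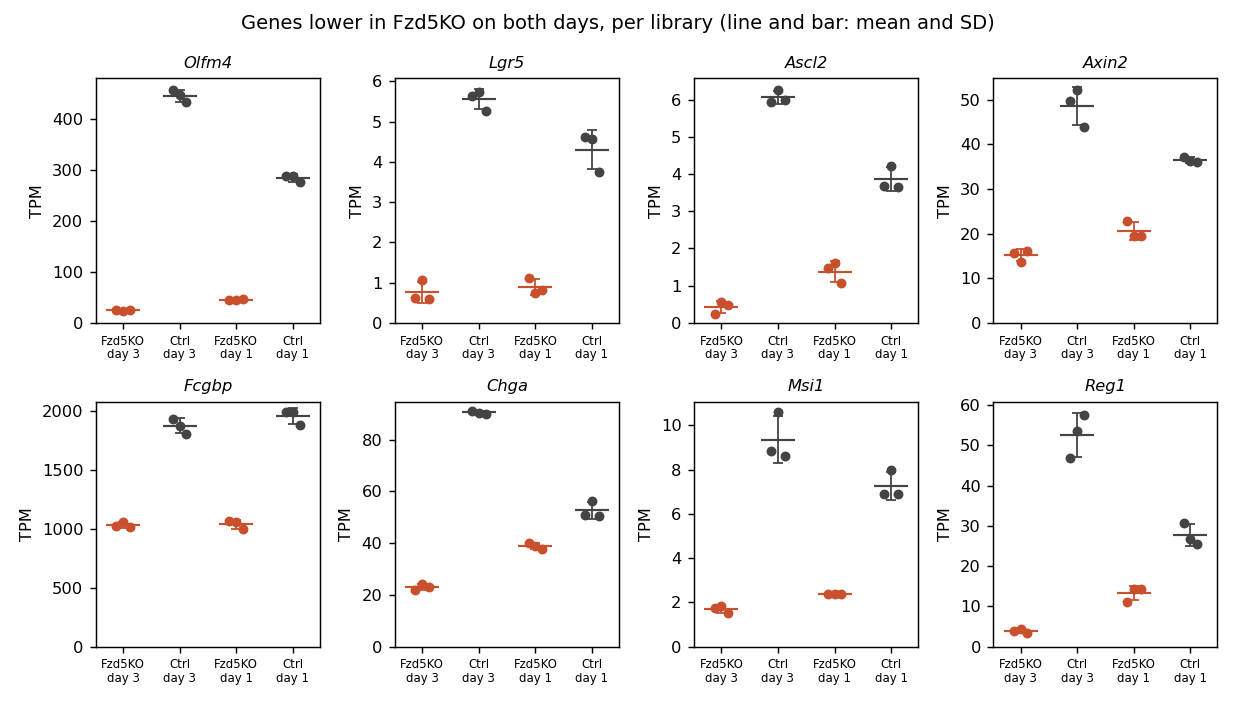
TPM per library for 8 genes lower in Fzd5KO, with Fzd5KO in orange and Ctrl in dark grey, points for the 3 libraries of a group and a line and bar for their mean and SD; each vertical axis starts at 0. As the rule requires, in every panel all Fzd5KO points lie below the Ctrl points of the same day. Olfm4, for example, lies at 23.1 to 25.7 TPM against 433 to 457 TPM at day 3.

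Goblet cell genes fell nearly as a whole list. Of 22 listed 21 were tested, with 20 called lower, 17 of them under all 4 scalings, 1 not called and a median change of −0.62. The shares over all tested genes were 19.3% called lower and 5.6% under all 4 scalings. Fcgbp, a mucus-associated protein, had 1022, 1061 and 1014 TPM in Fzd5KO and 1938, 1879 and 1811 TPM in Ctrl at day 3. At day 1 Fcgbp had 1065, 1059.8 and 997 TPM in Fzd5KO and 1998, 1998 and 1882 TPM in Ctrl. Its groups did not overlap and its change was nearly the same on each day, −0.86 ± 0.04 at day 3 and −0.91 ± 0.04 at day 1, with no call for the difference (adjusted p = 0.492). Muc2, the main secreted mucin, had 1601, 1734 and 1626 TPM in Fzd5KO and 2027, 2057 and 1887 TPM in Ctrl at day 3. At day 1 Muc2 had 1532, 1502 and 1443 TPM in Fzd5KO and 2612, 2630.3 and 2463 TPM in Ctrl. Its change was larger at day 1, −0.27 ± 0.045 at day 3 and −0.78 ± 0.045 at day 1 (adjusted p for the difference = 5.3e-05). Tff3, a trefoil peptide that protects the mucosa, changed by −1.1 ± 0.054 at day 3 and −0.66 ± 0.054 at day 1, and the lectin gene Zg16 by −0.71 ± 0.041 at day 3 and −0.88 ± 0.041 at day 1. The transcription factors of the lineage moved with its products: Atoh1 changed by −0.53 at day 3 and −0.46 at day 1, and Spdef by −0.55 at day 3 and −0.40 at day 1. Guca2a, a guanylate cyclase-activating peptide, was the member not called.

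Of 20 tested Paneth cell markers 13 were called lower and 7 were not called, but only 5 of the 13 calls held under all 4 scalings. Over all tested genes 19.3% were called lower and 5.6% under all 4 scalings. The markers not called were Lyz2, Mmp7, Defa24, Defa29, Defa30, Pla2g2a and Mptx2. The median change of the list was −1.33 at day 3 and −0.184 at day 1. Over all tested genes it was −0.143 at day 3 and −0.14 at day 1, so at day 1 the list lay close to a typical gene. Ang4, a microbicidal ribonuclease, had 109, 126 and 114 TPM in Fzd5KO and 324, 330 and 321 TPM in Ctrl at day 3. At day 1 Ang4 had 306, 302 and 311 TPM in Fzd5KO and 409, 402 and 377 TPM in Ctrl. Its change was −1.47 ± 0.049 at day 3 and −0.37 ± 0.049 at day 1, and it was called under each scaling. Lyz1, which encodes Paneth cell lysozyme, had 1006, 1081 and 1069 TPM in Fzd5KO and 2880.0, 2834 and 2759 TPM in Ctrl at day 3. At day 1 Lyz1 had 2580.4, 2510.0 and 2590.3 TPM in Fzd5KO and 3134, 3146 and 2899.9 TPM in Ctrl. Its call was lost through overlap under quantile normalization. Defa31, an alpha-defensin, had 356, 491 and 553 TPM in Fzd5KO and 1710.5, 1621 and 2628 TPM in Ctrl at day 3. At day 1 Defa31 had 199, 393 and 585 TPM in Fzd5KO and 2246, 2448 and 1282 TPM in Ctrl. Its spread within each group was large. Alpha-defensin genes are near-identical copies among which reads can be split, so the value of a single member is uncertain. Defa21, another copy, changed by −1.34 ± 0.04 at day 3 and −0.2 ± 0.04 at day 1 and was not scale-stable.

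Enteroendocrine genes were lower in 15 of 24 tested members, 10 of them under all 4 scalings, with 9 not called and a median change of −0.76. Beside this and the tuft cell count below, 19.3% of all tested genes were called lower and 5.6% under all 4 scalings. Chga, the granule protein chromogranin A, had 21.8, 24.1 and 22.9 TPM in Fzd5KO and 91.1, 90.5 and 90.1 TPM in Ctrl at day 3. At day 1 Chga had 39.9, 39 and 37.6 TPM in Fzd5KO and 50.8, 56.5 and 50.7 TPM in Ctrl. No library overlapped between genotypes, and its change was −1.94 ± 0.05 at day 3 and −0.43 ± 0.05 at day 1. Fzd5KO was the lower genotype on both days for Gip and Gcg, which encode the incretin hormone GIP and the glucagon precursor. Gip changed by −1.78 ± 0.058 at day 3 and −0.33 ± 0.058 at day 1 and Gcg by −1.72 ± 0.078 at day 3 and −0.67 ± 0.078 at day 1. Of 16 tested tuft cell markers 5 were called lower, 2 of them under all 4 scalings, and 11 were not called. On the mean of both days alone, with overlap ignored, limma gave 13 of the 16 an unadjusted p under 0.05 as lower and 1 as higher. At an adjusted p under 0.05, with overlap ignored, 5995 of all 14510 tested genes were lower on that mean and 2548 higher. The shares at an unadjusted p are at least as large and are not given, so the tuft cell counts are not compared with them. The scale-stable tuft cell members were Pou2f3, the transcription factor that specifies tuft cells, and Rgs13, a regulator of G-protein signalling. Pou2f3 had 0.15, 0.23 and 0.21 TPM in Fzd5KO and 1.9, 1.37 and 1.8 TPM in Ctrl at day 3. At day 1 Pou2f3 had 0.44, 0.44 and 0.51 TPM in Fzd5KO and 1, 0.93 and 0.95 TPM in Ctrl. It stayed under 1 TPM in all 6 Fzd5KO libraries and was tested only through Ctrl. Rgs13 changed by −2.01 ± 0.13 at day 3 and −0.65 ± 0.13 at day 1. Dclk1, a widely used tuft cell marker, was not part of the shared effect, with 2.63, 2.32 and 1.06 TPM in Fzd5KO and 12.9, 14.9 and 14.7 TPM in Ctrl at day 3. At day 1 Dclk1 had 5.64, 5.63 and 7.1 TPM in Fzd5KO and 6.42, 7.19 and 5.37 TPM in Ctrl. Its libraries overlapped at day 1.

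Many cell cycle genes were called lower, and their lists fell by more at day 3. Of 31 S phase genes 20 were called lower, 8 of them under all 4 scalings, and of 26 G2 and M phase genes 19 were called lower, 10 of them under all 4 scalings. The other 11 and 7 were not called. Of all tested genes 19.3% were called lower and 5.6% under all 4 scalings. Both lists had a median change of −0.59. At day 3 their medians were −0.908 and −0.913, beside −0.143 for all tested genes. At day 1 they were −0.26 and −0.257, beside −0.14 for all tested genes. Mcm7, a subunit of the replication helicase, had 20.6, 19.6 and 21.2 TPM in Fzd5KO and 51.1, 46.6 and 47.1 TPM in Ctrl at day 3. At day 1 Mcm7 had 27.9, 30.1 and 28.7 TPM in Fzd5KO and 37.3, 36.2 and 36.5 TPM in Ctrl. Uhrf1, which carries DNA methylation through replication, had 14.8, 15.2 and 16.2 TPM in Fzd5KO and 38.2, 36 and 31.5 TPM in Ctrl at day 3. At day 1 Uhrf1 had 22.7, 25.1 and 23.8 TPM in Fzd5KO and 35.5, 37.1 and 33.9 TPM in Ctrl. Mki67, the proliferation marker Ki-67, had 34.5, 37.9 and 36.3 TPM in Fzd5KO and 76.1, 71.2 and 68.5 TPM in Ctrl at day 3. At day 1 Mki67 had 42.8, 42.6 and 42.8 TPM in Fzd5KO and 51.9, 53.4 and 54.4 TPM in Ctrl. In these 3 genes the genotypes did not overlap, and changes were −1.2 ± 0.049 at day 3 and −0.33 ± 0.049 at day 1 for Mcm7, −1.14 ± 0.07 at day 3 and −0.55 ± 0.07 at day 1 for Uhrf1 and −0.97 ± 0.047 at day 3 and −0.31 ± 0.047 at day 1 for Mki67. The topoisomerase gene Top2a changed by −1.05 ± 0.047 at day 3 and −0.31 ± 0.047 at day 1 and the DNA polymerase delta gene Pold1 by −1.28 ± 0.052 at day 3 and −0.34 ± 0.052 at day 1. The histone genes Hist1h2bq and Hist1h2br, which are near-identical copies and so uncertain, ranged from 0 to 6.84 and from 0.76 to 6.77 TPM in Fzd5KO, against 10.5 to 26.3 and 10.8 to 27.6 TPM in Ctrl.

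Promoter windows of 300 bases from RefSeq (GRCm38.p6, around annotated transcript starts) were available for 9672 tested genes, 229 of the scale-stable higher and 628 of the scale-stable lower genes. More than 1 window was listed for 23.6% of these higher, 20.4% of these lower and 20.3% of all these genes, and a gene was counted when any of its windows held a motif. The TCF and LEF motif CTTTGAT, searched on both strands, was in 2.62% of the higher and 4.94% of the lower genes, against 3.17% of all. The E2F motif TTCCCGCC was in 5 of the higher and 36 of the lower genes, the second a share of 5.73%, against 4.79% of all. The HNF4 motif CAAAGTCC was in 3.49% of the higher and 1.59% of the lower genes, against 1.80% of all. The TCF and LEF and the HNF4 motifs share the run CAAAG on 1 strand, so 1 stretch can match both, and a match is a description, not a binding site. Windows are shown on the gene's strand for 1 scale-stable gene per motif, chosen among the named genes whose window held the motif and had its transcript start within 30 bases of the gene's annotated start. They are the lectin gene Reg3a (chr6:78380459-78380758, plus strand), which fell, the S phase gene Uhrf1 (chr17:56303087-56303386, plus strand) and, from the rises, the AP-1 subunit gene Junb (chr8:84978699-84978998, minus strand). Capitals mark the TCF and LEF motif in Reg3a, the E2F motif in Uhrf1 and the HNF4 motif in Junb, in either orientation.
Reg3a: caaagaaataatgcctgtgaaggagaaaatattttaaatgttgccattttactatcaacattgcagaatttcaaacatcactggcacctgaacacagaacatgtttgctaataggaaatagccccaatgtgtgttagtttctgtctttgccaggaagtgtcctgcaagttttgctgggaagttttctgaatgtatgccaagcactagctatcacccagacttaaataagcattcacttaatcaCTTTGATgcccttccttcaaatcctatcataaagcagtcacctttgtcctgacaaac
Uhrf1: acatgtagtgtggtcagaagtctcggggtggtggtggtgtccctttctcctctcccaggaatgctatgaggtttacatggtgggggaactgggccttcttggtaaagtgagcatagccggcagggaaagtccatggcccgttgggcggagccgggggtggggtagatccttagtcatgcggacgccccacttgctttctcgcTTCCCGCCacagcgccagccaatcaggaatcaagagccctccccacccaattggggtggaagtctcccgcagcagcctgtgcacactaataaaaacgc
Junb: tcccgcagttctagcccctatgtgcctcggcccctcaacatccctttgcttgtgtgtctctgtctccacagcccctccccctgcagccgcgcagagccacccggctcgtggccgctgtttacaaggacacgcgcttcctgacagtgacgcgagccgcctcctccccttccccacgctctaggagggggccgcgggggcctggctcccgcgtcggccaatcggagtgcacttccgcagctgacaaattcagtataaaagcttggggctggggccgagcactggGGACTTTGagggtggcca

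Notch pathway genes, which hold crypt cells in a progenitor state and set the balance between absorptive and secretory fates, were called lower in 7 of 15 tested members, 6 of them under all 4 scalings, with 8 not called and a median change of −0.32. Over all tested genes 19.3% were called lower and 5.6% under all 4 scalings. Notch1, the receptor of intestinal stem cells, had 2.9, 3.49 and 3.19 TPM in Fzd5KO and 12.4, 14.8 and 11.4 TPM in Ctrl at day 3. At day 1 Notch1 had 4.33, 4.43 and 4.69 TPM in Fzd5KO and 8.89, 9.37 and 8.27 TPM in Ctrl. It was lower in every Fzd5KO library of each day, with a change of −1.72 ± 0.094 at day 3 and −0.84 ± 0.094 at day 1. Notch2 changed by −0.78 ± 0.069 at day 3 and −0.53 ± 0.069 at day 1 and the feedback inhibitor Nrarp by −1.14 ± 0.062 at day 3 and −0.25 ± 0.062 at day 1. Of the ligands tested, Jag2 was called, with −0.95 at day 3 and −0.48 at day 1, and Dll1, Dll4 and Jag1 were not.

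In the EGF receptor family and ligands 3 of 13 tested members were higher and 2 lower, beside 2.38% higher and 19.3% lower of all tested genes. The median change was −0.0089 and turned to 0.072 and 0.15 under quantile normalization and median-of-ratios scaling. Hbegf, a heparin-binding ligand of the EGF receptor, had 30.2, 25.7 and 34.4 TPM in Fzd5KO and 15.7, 15.7 and 16.4 TPM in Ctrl at day 3. At day 1 Hbegf had 31, 33.2 and 30.9 TPM in Fzd5KO and 18.1, 19.5 and 15.4 TPM in Ctrl. Its Fzd5KO libraries were all above 25 TPM and its Ctrl libraries all below 20 TPM, with a change of 0.87 ± 0.099 at day 3 and 0.81 ± 0.099 at day 1 and no call for the difference between days (adjusted p = 0.779). Errfi1, a feedback inhibitor of the receptor, had 54, 53.7 and 54.5 TPM in Fzd5KO and 19, 19.3 and 17.3 TPM in Ctrl at day 3. At day 1 Errfi1 had 33.1, 35.5 and 34.3 TPM in Fzd5KO and 27.9, 30.9 and 30.8 TPM in Ctrl. Lrig1, a stem cell gene that also restrains the receptor, fell, with 20.3, 19.5 and 20.2 TPM in Fzd5KO and 41.4, 43 and 43.1 TPM in Ctrl at day 3. At day 1 Lrig1 had 22.9, 23.5 and 22 TPM in Fzd5KO and 35.5, 31.4 and 31.8 TPM in Ctrl. Changes were 1.5 ± 0.054 at day 3 and 0.2 ± 0.054 at day 1 for Errfi1 and −1.05 ± 0.051 at day 3 and −0.51 ± 0.051 at day 1 for Lrig1. Egfr changed by −0.38 at day 3 and −0.20 at day 1 and Erbb3 by 0.19 ± 0.031 at day 3 and 0.071 ± 0.031 at day 1, and neither call held under all 4 scalings. Of 9 tested BMP and TGF-beta targets, 1 was higher and 3 lower, with a median of −0.11 that turned to 0.018 under median-of-ratios scaling. The shares over all tested genes were again 2.38% higher and 19.3% lower. Id2, a BMP target, changed by −0.65 ± 0.10 at day 3 and −0.54 ± 0.10 at day 1, and Skil, a repressor of SMAD proteins, by 0.27 ± 0.057 at day 3 and 0.2 ± 0.057 at day 1.

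Falls outside these lists included genes with no single theme. Afp, which encodes alpha-fetoprotein, had 0.66, 0.87 and 0.88 TPM in Fzd5KO and 11.5, 13.4 and 11.9 TPM in Ctrl at day 3. At day 1 Afp had 3.51, 3.78 and 4.32 TPM in Fzd5KO and 13.1, 9.97 and 10.8 TPM in Ctrl. Its Fzd5KO libraries stood under 1 TPM at day 3 and under 5 TPM at day 1, with a change of −2.88 ± 0.11 at day 3 and −1.33 ± 0.11 at day 1. Esrrg, a nuclear receptor of energy metabolism, changed by nearly the same amount on each day, −1.3 ± 0.17 at day 3 and −1.29 ± 0.17 at day 1, as did Ifitm3, a membrane protein that restricts viral entry, with −1.15 ± 0.07 at day 3 and −1.11 ± 0.07 at day 1. Plekhg5, a guanine nucleotide exchange factor, changed by −1.42 ± 0.15 at day 3 and −1.08 ± 0.15 at day 1. Among Reg lectins of the lower villus and crypt, Reg1 had 3.78, 4.49 and 3.4 TPM in Fzd5KO and 46.8, 53.5 and 57.5 TPM in Ctrl at day 3. At day 1 Reg1 had 11.2, 14.2 and 14.3 TPM in Fzd5KO and 30.8, 26.7 and 25.6 TPM in Ctrl. Its change was −3.45 ± 0.12 at day 3 and −1.01 ± 0.12 at day 1. Reg3a fell and Reg3b rose, with changes of −1.44 ± 0.056 at day 3 and −0.32 ± 0.056 at day 1 for Reg3a and of 0.81 at day 3 and 0.55 at day 1 for Reg3b.

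Cytochrome P450 and conjugation enzymes were lower in 10 of 26 tested members and higher in 3 (19.3% and 2.38% over all tested genes), with a median of −0.097 that turned to 0.066 under median-of-ratios scaling. Cyp2c29, a drug-metabolising enzyme, had 1.32, 1.33 and 1.6 TPM in Fzd5KO and 11.1, 10.6 and 10.2 TPM in Ctrl at day 3. At day 1 Cyp2c29 had 17.2, 17.2 and 15.9 TPM in Fzd5KO and 28, 28.7 and 27 TPM in Ctrl. It was lower in Fzd5KO on both days, and lower at day 3 than at day 1 in both genotypes. Cyp1a1, the enzyme induced through the aryl hydrocarbon receptor, rose, with 37.6, 39.4 and 38.8 TPM in Fzd5KO and 7.79, 9.33 and 7.76 TPM in Ctrl at day 3. At day 1 Cyp1a1 had 5.25, 5.48 and 6.02 TPM in Fzd5KO and 3.31, 3.3 and 3.02 TPM in Ctrl. Changes were −2.27 ± 0.063 at day 3 and −0.7 ± 0.063 at day 1 for Cyp2c29, 2.09 ± 0.076 at day 3 and 0.64 ± 0.076 at day 1 for Cyp1a1 and 1.36 ± 0.033 at day 3 and 0.24 ± 0.033 at day 1 for Cyp3a13. The carboxylesterase gene Ces1f changed by −0.89 ± 0.04 at day 3 and −0.49 ± 0.04 at day 1. The glutathione transferase Gstm1 fell, at −0.5 ± 0.053 at day 3 and −0.59 ± 0.053 at day 1, while glutathione reductase Gsr, at 0.88 ± 0.037 at day 3 and 0.16 ± 0.037 at day 1, and the peroxiredoxin Prdx6, at 0.45 ± 0.046 at day 3 and 0.4 ± 0.046 at day 1, rose. In all, 5 of 23 antioxidant and glutathione genes were higher and 3 lower, where the shares over all tested genes were 2.38% and 19.3%.

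Genes of the villus tip were often among the shared rises. Of 20 tested, 9 were called higher, all under all 4 scalings, beside 2.38% of all tested genes, and 2 lower, neither under all 4, with a median change of 0.61 (1.09 at day 3 and 0.11 at day 1). Another 9 were not called. By their group means, Slc28a1, Klf4, Cdh1, Malat1, Ifrd1 and Atf3 lay above control at day 3 but below it at day 1. Pmp22, Neat1 and Pnp lay above control on both days. Enterocytes near the tip are known to express enzymes and transporters of purine nucleosides, and 3 of these were among the largest rises. Ada, adenosine deaminase (chromosome 2, 163726584 to 163750239, minus strand, mm10), had 788, 814 and 811 TPM in Fzd5KO and 72.5, 74 and 66.3 TPM in Ctrl at day 3. At day 1 Ada had 235, 226 and 229 TPM in Fzd5KO and 121, 127 and 106 TPM in Ctrl. Nt5e, which makes adenosine from AMP at the cell surface, had 50.8, 52.9 and 51.6 TPM in Fzd5KO and 12, 12.9 and 11.7 TPM in Ctrl at day 3. At day 1 Nt5e had 37.6, 38.4 and 37.3 TPM in Fzd5KO and 16.1, 16.9 and 16.8 TPM in Ctrl. Slc28a2, a concentrative transporter of purine nucleosides, had 223, 219 and 222 TPM in Fzd5KO and 51.2, 54 and 49.3 TPM in Ctrl at day 3. At day 1 Slc28a2 had 157, 159 and 157 TPM in Fzd5KO and 74.7, 75.5 and 75.2 TPM in Ctrl.

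In each of these 3 genes Fzd5KO day 3 was the highest group and Ctrl day 3 the lowest, with both day 1 groups between them. The change was 3.49 ± 0.061 at day 3 and 0.96 ± 0.061 at day 1 for Ada, 2.0 ± 0.044 at day 3 and 1.14 ± 0.044 at day 1 for Nt5e and 2.08 ± 0.034 at day 3 and 1.06 ± 0.034 at day 1 for Slc28a2. Xdh, xanthine oxidoreductase, changed by 1.19 at day 3 and 0.17 at day 1, and Pnp, purine nucleoside phosphorylase, was not called, with 0.28 at day 3 and 0.16 at day 1. Krt20, a keratin of differentiated cells, had 960, 965 and 980 TPM in Fzd5KO and 408, 402 and 387 TPM in Ctrl at day 3. At day 1 Krt20 had 552, 546 and 536 TPM in Fzd5KO and 494, 508 and 479 TPM in Ctrl. Its change was 1.28 ± 0.031 at day 3 and 0.14 ± 0.031 at day 1. Creb3l3, a transcription factor of enterocytes and liver, changed by 1.11 ± 0.041 at day 3 and 0.22 ± 0.041 at day 1. Prdm1, the repressor BLIMP1, had 3.87, 3.91 and 4.02 TPM in Fzd5KO and 0.79, 0.74 and 0.56 TPM in Ctrl at day 3. At day 1 Prdm1 had 1.76, 1.62 and 1.94 TPM in Fzd5KO and 1.14, 1.02 and 1.61 TPM in Ctrl. It was the enterocyte regulator with the largest rise in its list, where 3 of 22 tested members were higher and 1 lower. Over all tested genes the shares were 2.38% higher and 19.3% lower.

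**Figure D4:**
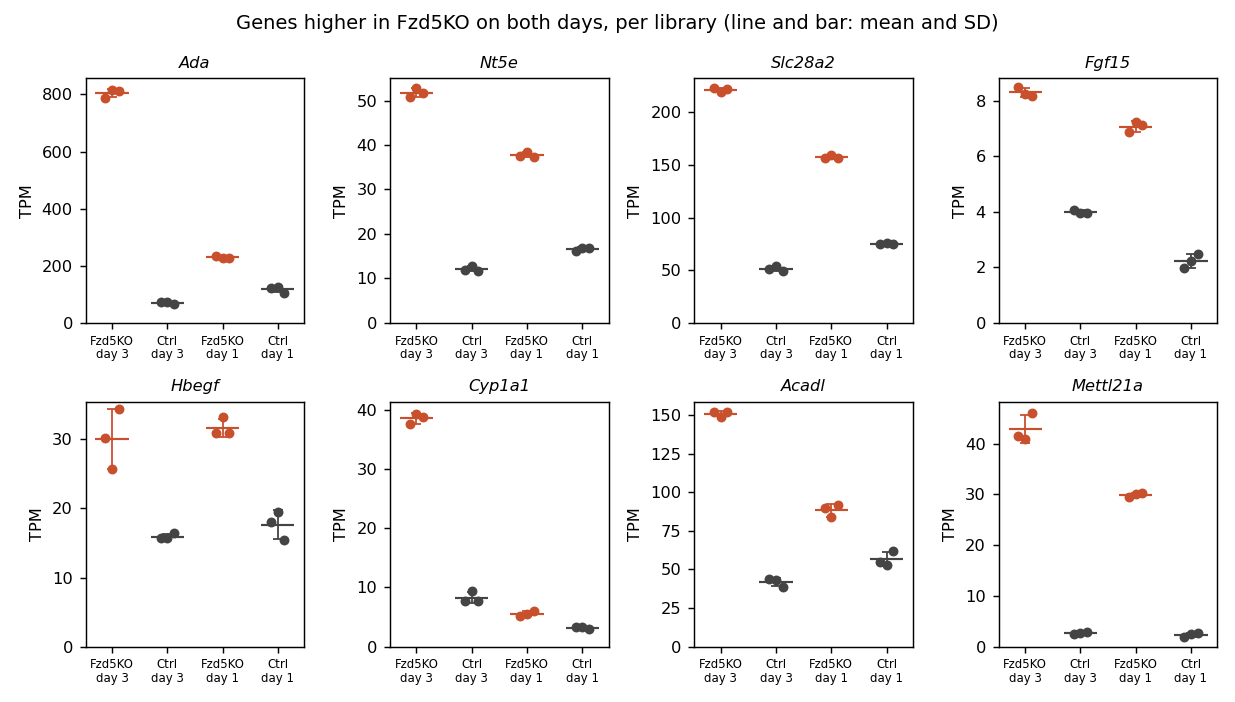
TPM per library for 8 genes higher in Fzd5KO, with Fzd5KO in orange and Ctrl in dark grey, points for the 3 libraries of a group and a line and bar for their mean and SD; each vertical axis starts at 0. As the rule requires, in every panel all Fzd5KO points lie above the Ctrl points of the same day. Ada, for example, lies at 788 to 814 TPM against 66.3 to 74 TPM at day 3.

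Fat absorption genes were called higher in 5 of 25 tested members, 3 of them under all 4 scalings. Over all tested genes these shares were 2.38% and 2.03%. Another 20 members were not called, and the median change of the list was 1.12 at day 3 and −0.043 at day 1. The called members were Apoa1, Apoa4, Fabp1, Dgat2 and Cidec. Fabp1, a cytosolic fatty acid carrier, had 4969, 4984 and 5100.1 TPM in Fzd5KO and 2368, 2272 and 2287 TPM in Ctrl at day 3. At day 1 Fabp1 had 4414, 4344 and 4345 TPM in Fzd5KO and 3302, 3319 and 3198 TPM in Ctrl. Dgat2, which makes triglyceride, had 294, 302 and 299 TPM in Fzd5KO and 119, 120 and 113 TPM in Ctrl at day 3. At day 1 Dgat2 had 127, 128 and 129 TPM in Fzd5KO and 115, 121 and 110 TPM in Ctrl. The gap between its genotypes was small at day 1. Changes were 1.12 ± 0.029 at day 3 and 0.42 ± 0.029 at day 1 for Fabp1 and 1.34 ± 0.039 at day 3 and 0.15 ± 0.039 at day 1 for Dgat2. Apoa4, an apolipoprotein of chylomicrons, changed by 1.31 ± 0.04 at day 3 and 0.57 ± 0.04 at day 1, and was called under each of the 3 scalings that could test it. Acadl, the long-chain acyl-CoA dehydrogenase of fatty acid oxidation, had 152, 149 and 152 TPM in Fzd5KO and 44, 42.9 and 38.8 TPM in Ctrl at day 3. At day 1 Acadl had 89.9, 83.7 and 91.5 TPM in Fzd5KO and 54.9, 53 and 61.8 TPM in Ctrl. Its change was 1.83 ± 0.063 at day 3 and 0.64 ± 0.063 at day 1. In its list 2 of 27 tested members were higher and 3 lower, beside 2.38% and 19.3% of all tested genes.

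Of 24 glycolysis and hypoxia genes 8 were called higher and 1 lower, all under all 4 scalings, with a median change of 0.33. For all tested genes the shares called were 2.38% higher and 19.3% lower. Slc16a3, a lactate exporter, had 58.6, 61.5 and 57.9 TPM in Fzd5KO and 17, 17.1 and 14.7 TPM in Ctrl at day 3. At day 1 Slc16a3 had 19.4, 21.6 and 22.5 TPM in Fzd5KO and 14.3, 17.2 and 15.7 TPM in Ctrl. Its Fzd5KO day 3 libraries stood well above the other 3 groups, with a change of 1.81 ± 0.079 at day 3 and 0.41 ± 0.079 at day 1. Ldha changed by 0.79 ± 0.03 at day 3 and 0.15 ± 0.03 at day 1 and Eno1 by 0.91 ± 0.039 at day 3 and 0.17 ± 0.039 at day 1. Ndrg1 was the member that fell, with −0.61 at day 3 and −0.57 at day 1. Ankrd37, a hypoxia-responsive gene outside the list, had 10.4, 9.16 and 9.43 TPM in Fzd5KO and 6.86, 5.3 and 4.49 TPM in Ctrl at day 3. At day 1 Ankrd37 had 4.55, 5.61 and 6.17 TPM in Fzd5KO and 2.47, 2.4 and 2.15 TPM in Ctrl. The change was 0.72 ± 0.13 at day 3 and 0.94 ± 0.13 at day 1.

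Of 24 p53 target genes 8 were higher, 7 under all 4 scalings, and 3 lower, 1 under all 4 scalings, with a median change of 0.20. Over all tested genes 2.38% were higher and 19.3% lower, and 2.03% and 5.6% under all 4 scalings. Ccng1, cyclin G1, had 56.3, 58.1 and 57.6 TPM in Fzd5KO and 41.7, 42 and 39 TPM in Ctrl at day 3. At day 1 Ccng1 had 65, 62.6 and 65.2 TPM in Fzd5KO and 49.2, 51.2 and 48.3 TPM in Ctrl. Its change was 0.48 ± 0.04 at day 3 and 0.37 ± 0.04 at day 1, with no call for the difference between the days (adjusted p = 0.136). Perp, a desmosomal protein, changed by 0.5 ± 0.036 at day 3 and 0.14 ± 0.036 at day 1, and Ddb2, a DNA repair factor, fell, with −1.19 ± 0.097 at day 3 and −0.6 ± 0.097 at day 1. Cdkn1a, the cell cycle inhibitor p21, had 59.9, 64.5 and 63.2 TPM in Fzd5KO and 30.5, 31.8 and 29.2 TPM in Ctrl at day 3. At day 1 Cdkn1a had 41.8, 41.4 and 40 TPM in Fzd5KO and 37.2, 41.5 and 36.3 TPM in Ctrl. Its day 1 libraries overlapped, so it was outside the shared effect. Of 13 tested immediate early genes 5 were higher, all 5 under all 4 scalings, beside 2.38% of all tested genes. The 5 were the AP-1 subunits Fos, Fosl2, Jun, Junb and Jund. Another 8 were not called, and the median change was 0.44. Fos had 106, 105 and 108 TPM in Fzd5KO and 48.4, 46.6 and 47.8 TPM in Ctrl at day 3. At day 1 Fos had 86.4, 86.7 and 89.6 TPM in Fzd5KO and 65.9, 72.2 and 74.2 TPM in Ctrl. Junb had 62.2, 70.5 and 68.8 TPM in Fzd5KO and 34.9, 37.2 and 29.5 TPM in Ctrl at day 3. At day 1 Junb had 49.4, 52 and 51.2 TPM in Fzd5KO and 38.8, 46.3 and 45.8 TPM in Ctrl. Both were highest in Fzd5KO day 3 and lowest in Ctrl day 3.

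Defence genes among the rises included Duox2 and its maturation factor Duoxa2, which make hydrogen peroxide at the apical surface. Duox2 had 89.6, 96.2 and 91.9 TPM in Fzd5KO and 36, 35.6 and 33.9 TPM in Ctrl at day 3. At day 1 Duox2 had 25.7, 25.6 and 26.1 TPM in Fzd5KO and 20.4, 21.8 and 18.1 TPM in Ctrl. Duoxa2 changed by 1.8 ± 0.071 at day 3 and 0.4 ± 0.071 at day 1 and Duox2 by 1.37 ± 0.059 at day 3 and 0.35 ± 0.059 at day 1. Both belong to the 16 genes of the lower villus. Of these 5 were higher and 3 lower, all under all 4 scalings, against 2.38% and 19.3% of all tested genes called. The other 3 rises were Reg3b, given above, the cytokine gene Il18, by 0.76 at day 3 and 0.48 at day 1, and the inflammatory caspase gene Casp4, by 0.41 at day 3 and 0.23 at day 1. Il33, an alarmin cytokine, had 30.4, 27.8 and 27.5 TPM in Fzd5KO and 4.5, 4.28 and 4.59 TPM in Ctrl at day 3. At day 1 Il33 had 13.3, 15.5 and 16.1 TPM in Fzd5KO and 11.6, 12.7 and 12.4 TPM in Ctrl. Its change was 2.44 ± 0.073 at day 3 and 0.26 ± 0.073 at day 1, and Il1rn, the interleukin 1 receptor antagonist, changed by 1.15 ± 0.15 at day 3 and 0.44 ± 0.15 at day 1. Il1rn reached 1 TPM in 1 Ctrl library and was tested only through Fzd5KO. These were the called members of 10 tested fetal-like regeneration markers. Ly6a, the marker Sca-1 of that state, had 16.5, 17.3 and 16.7 TPM in Fzd5KO and 1.63, 0.95 and 1.5 TPM in Ctrl at day 3. At day 1 Ly6a had 1.27, 1.61 and 1.65 TPM in Fzd5KO and 2.55, 1.74 and 1.96 TPM in Ctrl. It stood above control at day 3 and below control at day 1, so it was outside the shared effect.

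Fgf15, the enterocyte hormone that represses bile acid synthesis in the liver, rose on both days. It had 8.48, 8.25 and 8.19 TPM in Fzd5KO and 4.08, 3.96 and 3.97 TPM in Ctrl at day 3. At day 1 Fgf15 had 6.86, 7.23 and 7.13 TPM in Fzd5KO and 1.96, 2.24 and 2.47 TPM in Ctrl. Its Ctrl libraries were lower at day 1 than at day 3, and its change was 0.9 ± 0.071 at day 3 and 1.33 ± 0.071 at day 1 (adjusted p for the difference = 0.00462). Akr1b8, an aldo-keto reductase, had 32.2, 34.4 and 34.5 TPM in Fzd5KO and 11.9, 9.59 and 9.53 TPM in Ctrl at day 3. At day 1 Akr1b8 had 15.4, 16.3 and 19 TPM in Fzd5KO and 10, 9.42 and 10 TPM in Ctrl. The change was 1.62 ± 0.09 at day 3 and 0.72 ± 0.09 at day 1.

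Several gene lists held few shared changes, and some of these lists moved at day 3. Of 23 nutrient uptake genes of the middle villus 1 was lower, the glutamate transporter Slc1a1, and 22 were not called, while their median change was 1.07 at day 3 and −0.31 at day 1. On the mean of both days alone, with overlap ignored, limma gave 19 of the 23 an unadjusted p under 0.05 as higher and 3 as lower. At an adjusted p under 0.05, with overlap ignored, 2548 of all 14510 tested genes were higher on that mean and 5995 lower. The shares at an unadjusted p are at least as large and are not given, so the counts of this list are not compared with them. Sis, the disaccharidase sucrase-isomaltase, had 2387, 2539 and 2445 TPM in Fzd5KO and 892, 875 and 865 TPM in Ctrl at day 3. At day 1 Sis had 1571, 1558 and 1526 TPM in Fzd5KO and 2108, 2105 and 2044 TPM in Ctrl. It was above control at day 3 and below control at day 1, without overlap on either day. Of 30 interferon-stimulated genes the transcription factor Irf1 was the 1 shared rise, with medians of 1.35 at day 3 and −0.25 at day 1. Of 10 MHC class II genes 0 met the rule, with medians of 1.5 at day 3 and −0.33 at day 1. Cholesterol synthesis genes had 1 shared rise, Sqle, among 22, with medians of 0.55 at day 3 and −0.13 at day 1. The unfolded protein and integrated stress response list had 1, Sesn2, among 27, with medians of 0.362 at day 3 and −0.135 at day 1. Of 17 circadian clock genes Clock was lower, a call lost under median-of-ratios scaling, and the list medians were −0.0534 at day 3 and −0.104 at day 1. Of 14 iron handling genes Fth1 was higher and Tfrc and Pcbp2 were lower, with medians of 0.166 at day 3 and −0.136 at day 1. Over all tested genes the median was −0.143 at day 3 and −0.14 at day 1. The Fth1 call was lost under quantile normalization and rescaling, and the Tfrc call under median-of-ratios scaling and rescaling. Beside the counts of these lists, 2.38% of all tested genes were called higher and 19.3% lower.

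Markers of epithelium and of other cell types were followed beside these groups. All 12 epithelium markers were detected, with a summed level of 13705.9 to 13952.3 TPM in Fzd5KO and 8684 to 9062 TPM in Ctrl at day 3, and 9861 to 10011.5 TPM in Fzd5KO and 10204.9 to 10576 TPM in Ctrl at day 1. T cell markers summed to 223 to 251 TPM in Fzd5KO and 59.0 to 62.7 TPM in Ctrl at day 3, and 159 to 187 TPM in Fzd5KO and 236 to 261 TPM in Ctrl at day 1. That sum moved in opposite directions on the 2 days, and its part in the shared changes was not tested. Of the 14 tested T cell markers the 1 shared call was Xcl1, a chemokine of lymphocytes, with 3.24, 5.42 and 5.76 TPM in Fzd5KO and 2.03, 1.18 and 1.66 TPM in Ctrl at day 3. At day 1 Xcl1 had 5.62, 5.71 and 7.22 TPM in Fzd5KO and 2.9, 2.54 and 3.08 TPM in Ctrl. Beside the counts of calls for these cell types, 2.38% of all tested genes were called higher under the rule and 19.3% lower. The 9 B and plasma cell, 11 myeloid and 8 fibroblast and smooth muscle markers tested gave 0 calls under the rule. On the mean of both days alone limma gave 7 of 9, 9 of 11 and 0 of 8 an unadjusted p under 0.05 as higher, and 2 of the 8 fibroblast markers as lower. At an adjusted p under 0.05, with overlap ignored, 2548 of all 14510 tested genes were higher on that mean and 5995 lower. The shares of all tested genes at an unadjusted p are at least as large and are not given. These marker counts are therefore not compared with them. Of the other markers, 7 of 10 endothelial, 8 of 9 neuron and glia and 11 of 12 exocrine pancreas genes stayed under 1 TPM in every library.

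Mast cell proteases were higher in Fzd5KO on both days. Mcpt1 had 17.8, 20 and 21.5 TPM in Fzd5KO and 10.2, 7.71 and 9.77 TPM in Ctrl at day 3. At day 1 Mcpt1 had 5.7, 5.28 and 5.93 TPM in Fzd5KO and 1.46, 1.46 and 1.55 TPM in Ctrl. Mcpt2 had 7.43, 10.3 and 7.85 TPM in Fzd5KO and 4.07, 3.88 and 4.84 TPM in Ctrl at day 3. At day 1 Mcpt2 had 1.91, 2.04 and 1.9 TPM in Fzd5KO and 0.66, 0.62 and 0.66 TPM in Ctrl. Genotypes did not overlap on either day, and both genes were higher at day 3 than at day 1 in each genotype. Their changes were 1.02 ± 0.10 at day 3 and 1.41 ± 0.10 at day 1 for Mcpt1 and 0.85 ± 0.11 at day 3 and 0.84 ± 0.11 at day 1 for Mcpt2. The other mast cell markers Mcpt4, Cpa3, Fcer1a, Tpsb2 and Cma1 stayed under 1 TPM in every library, and Kit, also listed as a Paneth cell marker, fell, a call lost under quantile normalization. Red blood cell markers were lower in 3 of 5 tested members, beside 19.3% of all tested genes. Their summed level was 54.4 to 69.5 TPM in Fzd5KO and 201 to 228 TPM in Ctrl at day 3. At day 1 it was 54.2 to 67.7 TPM in Fzd5KO and 88.5 to 109 TPM in Ctrl. The haemoglobin gene Hbb-bs changed by −1.76 ± 0.11 at day 3 and −0.61 ± 0.11 at day 1. The part of red blood cell content in other falls was not tested. Xist, transcribed from the inactive X chromosome in female cells, was detected in all 12 libraries, with 77.9, 79.7 and 76.6 TPM in Fzd5KO and 161, 153 and 148 TPM in Ctrl at day 3. At day 1 Xist had 83, 85.9 and 92.5 TPM in Fzd5KO and 111, 116 and 113 TPM in Ctrl. The 4 Y-linked genes listed stayed under 1 TPM.

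Some of the largest shared changes lay close to Fzd5 on chromosome 1 or at other single loci. Mettl21a, which encodes a protein lysine methyltransferase (chromosome 1, 64606473 to 64617242, minus strand), had 41.6, 41 and 46 TPM in Fzd5KO and 2.43, 2.59 and 2.89 TPM in Ctrl at day 3. At day 1 Mettl21a had 29.5, 30.1 and 30.2 TPM in Fzd5KO and 1.83, 2.43 and 2.7 TPM in Ctrl. Its Fzd5KO libraries were all above 29 TPM and its Ctrl libraries all below 3 TPM, with a change of 3.59 ± 0.093 at day 3 and 3.23 ± 0.093 at day 1. The other genes of this paragraph, and Gt(ROSA)26Sor, Dynlt1b and Tmem181b-ps, were chosen after their values were seen. The non-coding gene 2810408I11Rik, 0.0507 Mb away, changed by 4.95 at day 3 and 4.22 at day 1, and Ccnyl1, whose annotated start overlaps that of 2810408I11Rik on the other strand, by −0.59 at day 3 and −1.11 at day 1. Whether reads were counted by strand is not stated, so both values are uncertain. BC035947, 13.8 Mb from Fzd5 on the same chromosome (78497026 to 78512158, minus strand), had 6.31, 5.81 and 5.83 TPM in Fzd5KO and 0.03, 0.02 and 0.03 TPM in Ctrl at day 3. At day 1 BC035947 had 3.05, 3.71 and 3.84 TPM in Fzd5KO and 0.05, 0 and 0.02 TPM in Ctrl. It was close to absent in Ctrl and was tested only through Fzd5KO, so its change on the log2(TPM + 1) scale, 2.77 at day 3 and 2.14 at day 1, understates the ratio.

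Gt(ROSA)26Sor, the non-coding transcript of the ROSA26 locus on chromosome 6 (113067428 to 113077333, minus strand), a common site for inserted transgenes, stood near a constant share of control. It had 7, 6.49 and 5.77 TPM in Fzd5KO and 11.8, 13.4 and 12.4 TPM in Ctrl at day 3. At day 1 Gt(ROSA)26Sor had 6.49, 6.15 and 6.24 TPM in Fzd5KO and 13.9, 12.8 and 14.3 TPM in Ctrl. Its mean was 51.1% of control at day 3 and 46.0% at day 1, and the difference between the days did not pass (adjusted p = 0.329). The labels do not say whether any allele at this locus was present. On chromosome 17, Tmem181c-ps had 7.43, 9.31 and 8.67 TPM in Fzd5KO and 1.79, 1.85 and 2.43 TPM in Ctrl at day 3. At day 1 Tmem181c-ps had 7.65, 6.11 and 5.82 TPM in Fzd5KO and 2.23, 5.04 and 3.83 TPM in Ctrl. Its neighbours Dynlt1b and Tmem181b-ps rose with it, by 1.56 and 1.1 at day 3 and by 0.41 and 0.30 at day 1. These are copies of similar sequence, so each one's level is uncertain. Of 11 other tested genes within 1 Mb of Fzd5, 2 were scale-stable higher and 1 lower (27.3%), within 15 Mb 9 and 7 of 163 (9.82%), and on other chromosomes 269 and 761 of 13588 (7.58%).

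At the edge of the rule, Smarcd2 and Acsl1 lay just inside it and Gm42587 and Gm3081 just outside. At day 1 the highest Fzd5KO library of Smarcd2 had 44.89 TPM, against 44.90 TPM in the lowest Ctrl library. For Acsl1 these values were 33.88 TPM in Fzd5KO and 33.89 TPM in Ctrl. Gm42587 had its lowest Fzd5KO library and its highest Ctrl library both at 0.69 TPM at day 1, and Gm3081 had its highest Fzd5KO and its lowest Ctrl library both at 1.31 TPM at day 3.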

How the data were processed

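The authors deposited 1 table of TPM values per gene and library, made with RSEM per the file's name and the submitters' processing notes, which also name bcl2fastq 2.18, STAR 2.7.3a and the build mm10. Per the labels' protocols the libraries kept total RNA and strand; the annotation used is not stated. TPM divides by transcript length and fixes each library's total, so depth is unknown and no counting interval is given.

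The statistic was limma 3.58.1 (R 4.3.3) applied to log2(TPM + 1), with 4 group means, 1 common spread for the 12 libraries, 8 degrees of freedom and an intensity trend. Genes needed at least 1 TPM in at least 3 libraries. Adjustment was by Benjamini-Hochberg over the 14510 genes that passed. Called genes had an adjusted p under 0.05 on the mean of both days and no overlap on either day. The difference between the days was tested in the same fit. Changes are given ± SE. The labels do not say that replicate numbers pair the libraries, and the main fit did not pair them. Deviations of same-numbered libraries of a day correlated between −0.069 and 0.033, which cannot exclude a shared litter or batch. The table holds 0 columns of other samples. Of the tested genes 14494 matched GENCODE mouse release M21 (GRCm38, the assembly of mm10), which gave coordinates.

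Named genes were the 12 rises and 12 falls with the largest change on the day where it was smaller, among called genes reaching 5 TPM in a group. To these were added up to 4 called members of each list with the smallest p and a fixed set of markers. Genes outside this rule are named as list members, or as chosen after their values were seen. Some genes that the rule names are not reported here. The rule, lists and members were chosen with earlier results of these data known. Scalings and other alternatives are in the closing section. The procedure was tested on simulated data. Figures were drawn with matplotlib 3.10.9.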

Additional observations from a re-analysis of the deposited data

Results flagged for a closer look

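The change in Fzd5KO against Ctrl differed between day 3 and day 1 for 96 of the genes given with values in the report, by the test of that difference in limma (adjusted p under 0.05 over all tested genes). The values below are the day 3 change minus the day 1 change in log2(TPM + 1), so for a rise a positive value and for a fall a negative value means a larger change at day 3.

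Among crypt stem cell and Wnt genes the difference was −1.52 for Olfm4, −1.28 for Ascl2, −1.13 for Smoc2, −1.14 for Slc12a2, −0.81 for Axin2 and −0.69 for Igfbp4. Ror2 differed by −0.68, Msi1 by −0.66, Clca3b by −0.52, Myc by −0.90, Fzd5 by −0.24 and Fzd7 by 0.35. Prom1 differed by −0.94, Clca4b by 1.53 and Ccnd2 by 0.24. Among secretory lineage genes the difference was −1.51 for Chga, −1.45 for Gip, −1.05 for Gcg, −1.36 for Rgs13, −0.74 for Pou2f3 and −2.34 for Dclk1. Lyz1 differed by −1.17, Defa21 by −1.13, Ang4 by −1.10, Tff3 by −0.44, Muc2 by 0.52 and Zg16 by 0.17. Guca2a differed by 0.60. Among cell cycle, Notch and growth factor genes the difference was −0.86 for Mcm7, −0.94 for Pold1, −0.58 for Uhrf1, −0.73 for Top2a, −0.66 for Mki67 and −0.88 for Notch1. Nrarp differed by −0.89, Lrig1 by −0.54, Errfi1 by 1.30, Erbb3 by 0.12 and Jag2 by −0.47. Among villus tip and enterocyte genes the difference was 2.53 for Ada, 0.86 for Nt5e, 1.02 for Slc28a2, 1.14 for Krt20, 0.88 for Creb3l3 and 1.24 for Prdm1. Fgf15 differed by −0.43, Sis by 1.91, Slc1a1 by −0.33, Reg1 by −2.44, Reg3a by −1.12 and Reg3b by 0.26. Xdh differed by 1.02.

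Among lipid, sugar and drug metabolism the difference was 0.70 for Fabp1, 0.74 for Apoa4, 0.45 for Apoa1, 1.19 for Dgat2, 1.19 for Acadl and 0.99 for Sqle. Ldha differed by 0.64, Slc16a3 by 1.40, Eno1 by 0.75, Gsr by 0.72, Akr1b8 by 0.90 and Cyp3a13 by 1.12. Cyp1a1 differed by 1.45, Cyp2c29 by −1.56 and Ces1f by −0.40. Among stress, defence and immune genes the difference was 0.84 for Fos, 0.55 for Jun, 0.75 for Junb, 0.41 for Fosl2, 0.91 for Cdkn1a and 0.36 for Perp. Ddb2 differed by −0.59, Irf1 by 0.44, Il33 by 2.17, Il18 by 0.28, Il1rn by 0.71 and Ly6a by 3.22. Duoxa2 differed by 1.40, Duox2 by 1.03 and Mcpt1 by −0.39. Among genes beside Fzd5 or at other single loci the difference was 0.36 for Mettl21a, 0.73 for 2810408I11Rik, 0.52 for Ccnyl1, 0.62 for BC035947, 0.93 for Tmem181c-ps and 1.14 for Dynlt1b. Tmem181b-ps differed by 0.80. Among other genes the difference was −0.33 for Smarcd2, −0.29 for Acsl1, −1.55 for Afp, 0.20 for Clock, −0.57 for Tfrc and −0.59 for Xist. Hbb-bs differed by −1.14. Opposite signs on the 2 days, not only different sizes, were seen among these genes in Sis, Ly6a, Clca4b, Guca2a and Myc, the last with overlapping libraries at day 1.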

How the results depend on the processing

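Counts of called genes depended most on the scaling between libraries. The deposited TPM gave 345 higher and 2801 lower genes, quantile normalization 1015 higher and 1190 lower, median-of-ratios scaling 1479 and 1132, and TPM rescaled without abundant, mitochondrial, predicted and small RNA genes 699 and 1714. Requiring an adjusted p under 0.05 on each day separately left 202 higher and 1672 lower genes. The balance of calls turned with the scaling, with 89.0% lower in the deposited TPM and 43.4% lower under median-of-ratios scaling. No single gene given with a value changed sign under any alternative run, while, of the list medians printed for the mean of both days, those of the EGF receptor, BMP and P450 lists did. Leaving out 1 library gave 346 to 496 higher genes, the highest count without Ctrl day 1 replicate 2, and 2836 to 3280 lower genes, and 5961 to 6207 genes for the difference between the days. With the replicate block (the replicate number as a block within day, 4 residual degrees of freedom) there were 342 higher and 2773 lower genes and 5977 for the difference between the days, and no count moved by more than 1.5 times. With no filter there were 381 higher and 3043 lower genes, and with a filter at 5 TPM 302 and 2081. Pseudocounts of 0.1 and 5, no intensity trend and array weights kept every count within 1.5 times. Over 160 genes and 3503 gene-by-alternative results, 47 calls were lost, 19 under quantile normalization, 18 under median-of-ratios scaling and 10 under rescaling, and 23 were gained. The cause was not tested. TPM carries no depth, so precision at low levels is unknown.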
